A study of Mus musculus with 17 samples.

Results

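The comparison described here sets 12 libraries of obese, diabetic BTBR ob/ob mice against 5 of lean wild type BTBR mice, whatever the treatment. Its members were chosen by genotype label alone, and they take in 17 of the 17 sequenced kidney libraries. A change common to the ob/ob mice was defined as one that had the same direction in each of 2 treatment groups against wild type, so the account is of what diabetic kidney tissue of this strain had in common with and without drug.

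Mice homozygous for the ob allele make no working leptin, the satiety hormone of fat cells. They overeat, and on the BTBR background they also become severely insulin resistant and diabetic and develop kidney disease with leaky glomeruli. In a glomerulus, podocytes wrap the capillaries and close the filter with their slit diaphragms, fenestrated endothelium lines it, mesangial cells hold the loops together, and a basement membrane rich in type IV collagen lies between podocyte and endothelium.

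RNA came from cortex tissue enriched for glomeruli, taken from mice of 24 weeks. The saline group held 5 libraries (genotype label ob/ob-d30) and the atrasentan group 7 (genotype label BTBR ob). Both were of mice dosed for 6 weeks from 18 weeks of age. The second group received atrasentan, a blocker of the endothelin A receptor, at 5 mg/kg per day in the drinking water. The 5 wild type libraries (label WT-d30) were of mice of the same age and carry no dose in their labels. The sources used here do not say what d30 means, and since the genotype label differs between the ob/ob groups, whatever it marks and the treatment cannot be told apart. The ob allele was carried over to BTBR from another strain, so the ob/ob mice also carry donor DNA around Lep. All markers of podocytes on a list of 25 were measured, as were all 20 markers each of glomerular endothelium and of mesangium.

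Libraries of the atrasentan group differed as a set from the 10 remaining ones, which bears on every value below that averages the ob/ob groups. They had 21396 to 23081 genes with a read against 23901 to 25313, and 3.17% to 5.65% of their reads outside genes against 5.95% to 8.58%. Gene reads per library ran from 29161833 to 52528747. Most results are therefore given for the mean of the ob/ob groups and for each group alone. The saline values come from the same fit of all 17 libraries, so their errors and p-values still draw on the atrasentan libraries.

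Of 17766 genes tested with edgeR, 2268 (12.8%) passed for the mean of the ob/ob groups and 2218 (12.5%) changed in common: 1092 were higher (6.15%) and 1126 lower (6.34%) in ob/ob than in wild type mice, at an adjusted p under 0.05 for the mean of the ob/ob groups and with the same sign in each. Another 50 genes (0.281%) passed for the mean while the groups had opposite signs. The split depended on the scaling of the libraries, because upper-quartile scaling gave 724 higher and 1497 lower genes, 32.6% higher in place of 49.2%. The counts were 663 and 737 without wild type library 3 and 640 and 786 without wild type library 5. They were 219 and 298 when the percentage of reads falling outside genes entered the model, a fit in which 61 of the 116 common genes named here were no longer called. That percentage did not overlap between the atrasentan and the remaining libraries. It is thus nearly tied to the treatment group, and a call lost in this fit cannot be assigned to it.

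The common changes were unequal in size between the ob/ob groups. Their median absolute log2 fold change was 0.50 with saline and 0.93 with atrasentan, and for 1078 of them (48.6%) the saline value was less than 0.5 times the atrasentan value. Between the ob/ob groups themselves 1169 of the common genes (52.7%) were called different, where 33.8% of all genes tested were. Against the same wild type mice, 910 genes (5.12%) were called with saline, 3.21% higher and 1.91% lower, and 5190 (29.2%) with atrasentan, 14.7% higher and 14.5% lower.

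A stricter question is whether a gene differed from wild type in each ob/ob group on its own. Taking the larger of the 2 p-values per gene and adjusting it over all genes tested left 140 genes (0.788%), 60 higher (0.338%) and 80 lower (0.450%). These will be called the genes supported in each group. Their median absolute log2 fold changes were 1.20 with saline and 1.55 with atrasentan, and 125 of them had no overlap of levels between the 12 ob/ob and the 5 wild type libraries. Both follow in part from the selection, which asks for a change in each group. No overlap was found for 467 of all genes tested (2.63%; 1.09% above and 1.54% below wild type). The number of supported genes rested on single libraries, since it was 69, 60 and 78 without saline library 1, 2 or 3 and 72, 86 and 73 without wild type library 3, 4 or 5. It was 27 without saline libraries 1 and 3, which held the most tubule RNA, and 7 when the percentage of reads outside genes entered the model. It was 3 when a glomerular score entered it, the mean log2 level of podocyte markers less the mean of the proximal tubule markers. That score itself holds part of the outcome.

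**Figure D1:**
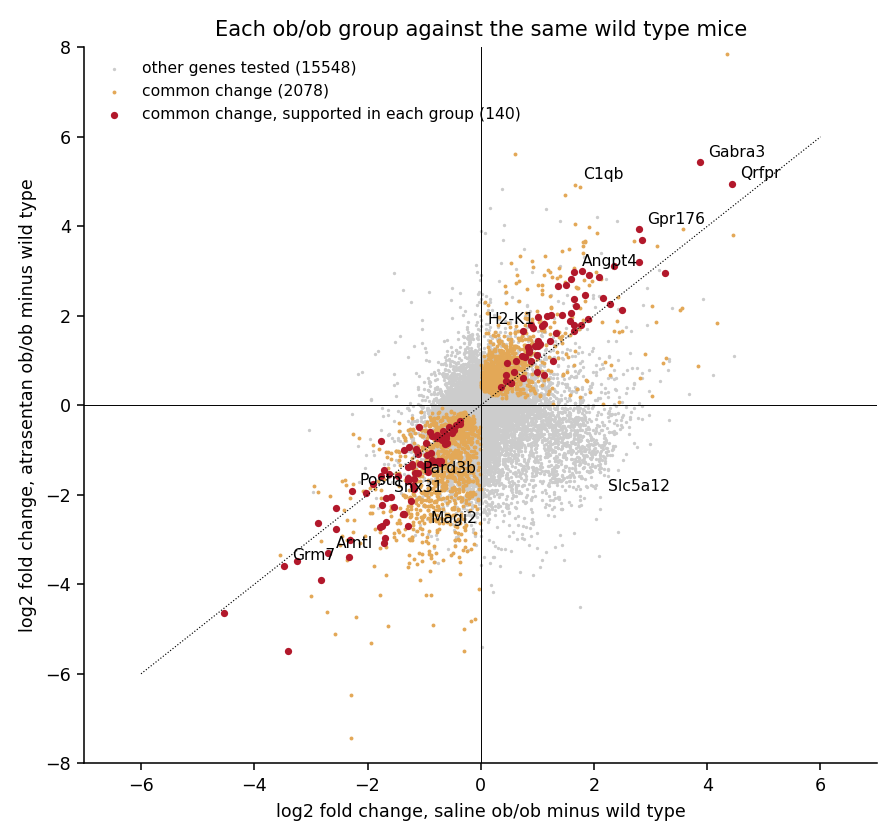
Each point is 1 of 17766 genes, by its log2 fold change against the same 5 wild type libraries. The saline ob/ob group is horizontal and the atrasentan ob/ob group vertical, and the dotted line marks equal change. Orange and red points are the 2218 common changes and red points are the 140 supported in each group, which were selected for a change in each group. Since both axes share the wild type mice, points spread along that line in part by construction.

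Genes named below for the size or the support of their change were chosen among those without overlap between ob/ob and wild type libraries, so that this separation describes the choice. Snx31, a sorting nexin of the endosomal system (chr15:36504062-36555573, minus strand, GRCm38), had the strongest support of all genes. It read 49.3, 63.8, 76.5, 50.5 and 51.9 CPM in wild type (reads of a gene scaled to the effective size of its library), 18.8, 13.9, 16.1, 20.6 and 22.5 CPM with saline, and 9.93 to 17.5 CPM (median 14.2) with atrasentan. Every ob/ob library lay below every wild type library. The log2 fold change was -1.67 ± 0.17 with saline and -2.07 ± 0.15 with atrasentan (SE; adjusted p for both groups 0.000283, edgeR quasi-likelihood test). Snx31 was also the 1 gene of the 140 that was supported in each group in every alternative fit for which that was computed.

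The receptor genes Qrfpr and Gpr176 were low in wild type kidney and many times higher in the ob/ob mice. Qrfpr (chr3:36179424-36222313), which encodes the receptor of the neuropeptide QRFP, read 1.06, 1.90, 6.01, 0.365 and 0.825 CPM in wild type, 59.5, 87.0, 37.2, 20.9 and 14.1 CPM with saline and 42.2 to 87.5 CPM (median 58.5) with atrasentan. It rose by 4.44 ± 0.62 and 4.94 ± 0.62 on the log2 scale, with no detectable difference between the ob/ob groups (0.50 ± 0.49, adjusted p = 0.454, edgeR). Gpr176 (chr2:118277110-118373419), an orphan receptor known from the clock centre of the brain, read 2.37, 0.543, 2.31, 0.882 and 0.619 CPM in wild type, 7.17, 9.67, 13.4, 11.1 and 5.95 CPM with saline, and 11.6 to 30 CPM (median 23.4) with atrasentan. No ob/ob library overlapped a wild type library for either receptor, and Gpr176 rose by 2.80 ± 0.41 with saline and 3.93 ± 0.42 with atrasentan.

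Other genes with large rises in both groups encode proteins of the cell surface and of the matrix. Gabra3, a subunit of the GABA-A receptor on the X chromosome, rose from at most 0.354 CPM in wild type to 1.88 to 4.37 CPM with saline and 3.58 to 22.6 CPM with atrasentan, where library 6 held the highest value. The protocadherin gene Pcdh7 (chr5:57717967-58133230) read 3.66, 2.62, 3.51, 3.29 and 2.71 CPM in wild type and 12.1, 16.9, 19.8, 11.9 and 10.1 CPM with saline, and 6.71 to 23.1 CPM with atrasentan. It rose by 2.16 ± 0.30 with saline and 2.39 ± 0.29 with atrasentan. Timp4, an inhibitor of matrix metalloproteinases, rose by 2.84 ± 0.55 and 3.69 ± 0.55, the chloride channel regulator Clca3a1 by 2.80 ± 0.44 and 3.21 ± 0.43, and Adam23, a member of the disintegrin and metalloprotease family, by 2.09 ± 0.33 and 2.86 ± 0.33. Rgcc, a regulator of the cell cycle that responds to complement, rose by 2.29 ± 0.35 and 2.27 ± 0.33. Ripor3 rose by 2.35 ± 0.53 and 3.12 ± 0.53 and was supported in each group as well (adjusted p = 0.0456).

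For 3 of the 12 largest rises the support did not extend to each group. The matrix protein Spon2 (2.13 ± 0.52 and 2.82 ± 0.51, adjusted p for both groups 0.0625) and the organic anion transporter Slco2b1 (2.04 ± 0.48 and 2.98 ± 0.47, adjusted p = 0.0548) missed that threshold in the edgeR fit. So did Il1r2, the decoy receptor of interleukin 1 (adjusted p = 0.0890), whose saline mean of 1.37 CPM rests on library 2 at 5.14 CPM, the other 4 lying between 0.312 and 0.525.

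Of the 6 rises named for their support in both groups, 3 encode secreted proteins. C1qtnf3 (chr15:10952332-10980150), an adipokine of the C1q and TNF family, read 9.55, 9.47, 8.16, 10.1 and 10.2 CPM in wild type, 29.3, 25.6, 38.5, 25.6 and 33.7 CPM with saline and 24.4 to 72.5 CPM (median 40.8) with atrasentan, a rise of 1.68 ± 0.23 and 2.21 ± 0.22. Rnase4, a secreted ribonuclease, read 59.7, 55.9, 47.1, 44.4 and 54.1 CPM in wild type, 95.6, 108, 86.4, 93.5 and 95.9 CPM with saline, and 117 to 226 CPM (median 183) with atrasentan. None of the 3 groups overlapped, and the atrasentan group was the highest (0.88 ± 0.14 and 1.79 ± 0.13, ob/ob groups against each other adjusted p = 0.000194, edgeR). Angpt4, a ligand of the endothelial receptor TIE2, likewise rose by 1.65 ± 0.25 with saline and 2.99 ± 0.25 with atrasentan (adjusted p = 0.000584 between the ob/ob groups). The protein cross-linking enzyme Tgm2 rose by 1.00 ± 0.16 and 1.13 ± 0.15, and the transcription factor Tbx2 rose from 194 ± 22.1 CPM (SD, n = 5) to 336 ± 67.5 (n = 5) and 413 ± 44.0 (n = 7). Ccdc68 rose by 0.95 ± 0.15 and 1.33 ± 0.14.

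**Figure D2:**
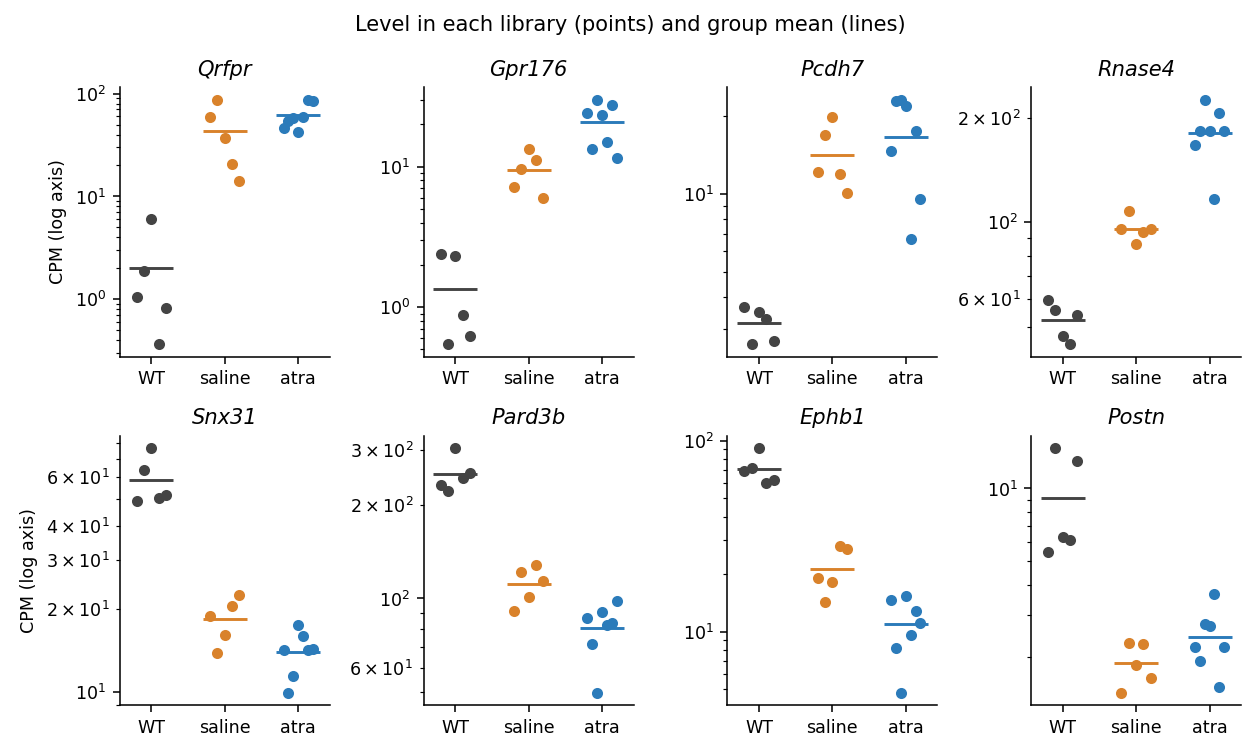
Level of 8 genes in CPM on log axes, 1 point per library and a line at each group mean, for wild type (WT, 5), saline ob/ob (5) and atrasentan ob/ob (atra, 7) mice. In each panel all 12 ob/ob points lie on one side of the 5 wild type points, above them in the upper row and below them in the lower row.

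Other falls named for their support were of a polarity gene, an ephrin receptor gene and a kinase gene. Pard3b (chr1:61638824-62642284), a relative of the cell polarity protein PAR3, read 231, 222, 304, 243 and 253 CPM in wild type, 91.1, 122, 101, 128 and 114 CPM with saline and 49.7 to 98.3 CPM (median 83.7) with atrasentan. The ephrin receptor gene Ephb1 read 60.2 to 91.4 CPM in wild type, 14.2 to 28.0 with saline and 4.76 to 15.4 with atrasentan, and fell by 1.74 ± 0.26 and 2.70 ± 0.24 on the log2 scale. Dmpk, the protein kinase of myotonic dystrophy, fell by 0.88 ± 0.12 and 1.07 ± 0.11 with no detectable difference between the ob/ob groups (adjusted p = 0.217, edgeR). Wt1os, an antisense transcript of the podocyte gene Wt1, fell by 1.54 ± 0.22 and 2.27 ± 0.20. The library kit does not mark the strand, so its reads and those of Wt1 cannot be told apart where both overlap.

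Periostin, Postn, a matrix protein of remodelling connective tissue (chr3:54361109-54391037), was lower in ob/ob mice with or without drug. It read 5.43, 14.7, 6.32, 6.14 and 13.0 CPM in wild type, 1.42, 2.29, 1.85, 2.26 and 1.64 CPM with saline, and 1.51 to 3.66 CPM (median 2.21) with atrasentan. The 3 lower wild type values were still above every ob/ob value. Its log2 fold changes were -2.27 ± 0.31 and -1.91 ± 0.27 (adjusted p for both groups 0.00388, edgeR), with no detectable difference between the ob/ob groups (adjusted p = 0.332).

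The 12 falls named for their size, all without overlap, were of transcripts with wild type means between 1.5 and 9.83 CPM. They included Grm7, a metabotropic glutamate receptor (-3.47 ± 0.67 and -3.59 ± 0.60), Cacna2d2, an auxiliary subunit of calcium channels (-2.31 ± 0.49 and -3.01 ± 0.45), the adaptor Efs (-2.55 ± 0.48 and -2.76 ± 0.43), the connexin gene Gja3 (-2.02 ± 0.32 and -1.95 ± 0.29), the sulfatase gene Arsi (-2.88 ± 0.64 and -2.64 ± 0.56) and Ankrd63 (-2.55 ± 0.58 and -2.30 ± 0.51). These 6 were supported in each group. The kidney development regulator Eya1, the transcription factor gene Sox8, Tmem132e, Fam180a, Creg2 and Brinp2 missed support in each group (adjusted p between 0.0548 and 0.210, edgeR). Their falls in the mean of the groups lay between -3.67 for Eya1 and -2.34 for Brinp2.

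Podocyte genes were lower in ob/ob mice more often than those of any other of the 35 gene lists. Of 25 podocyte genes 21 fell and none rose, where 6.34% of all genes tested fell in common, and the list median was -1.25 on the log2 scale, -0.81 with saline and -1.72 with atrasentan, against a median of 0.01 over all genes. Fewer podocytes and less of each transcript per podocyte cannot be told apart in such bulk tissue. Tubule RNA also varied between libraries. Summed proximal tubule markers were 5285 to 23788 CPM with saline, 3592 to 6112 in wild type and 2018 to 4896 with atrasentan. The part of tubule RNA in the podocyte values was not tested. Between 15 and 21 of the 25 fell in each of the alternative fits, the fewest (15) where the glomerular score or the percentage of reads outside genes entered the model. The summed level of the 25 markers was 12702 to 19889 CPM in wild type, 8253 to 14649 with saline and 5430 to 10033 with atrasentan, and only saline library 4 reached into the wild type range.

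Podocyte genes of signalling, of the slit diaphragm and of transcription were among those that fell. Plce1, a phospholipase mutated in nephrotic syndrome (chr19:38481109-38785030), read 103, 86.5, 118, 95.7 and 103 CPM in wild type, 28.1, 36.7, 37.3, 51.0 and 41.5 CPM with saline, and 7.08 to 26.3 CPM (median 21.8) with atrasentan, with no overlap among the 3 groups. Nephrin, Nphs1, the core protein of the slit diaphragm, read 190, 174, 208, 135 and 143 CPM in wild type, 62.0, 69.7, 60.3, 120 and 95.5 CPM with saline and 24.4 to 63.1 CPM (median 38.8) with atrasentan. Wild type and ob/ob levels of Nphs1 did not overlap, though saline library 4 came near. The scaffold Magi2 fell by 1.03 ± 0.27 and 2.76 ± 0.26 on the log2 scale, and Lmx1b, a transcription factor that maintains podocytes, by 1.35 ± 0.31 and 2.42 ± 0.28.

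Only 4 of the podocyte genes were supported in each group: Plce1 (adjusted p = 0.0232), Lmx1b (0.0450), the membrane protein gene Thsd7a (0.0407) and Nes, the intermediate filament nestin (0.0154, edgeR). Nes differed from the others in its evenness, with -0.64 ± 0.12 and -0.61 ± 0.11, while 7 of the 21, Nes included, lay between -0.64 and -0.39 in the saline group alone. The podocyte genes that did not pass were Trpc6 (-0.30 ± 0.21), Kirrel (-0.24 ± 0.21), Myo1e (-0.07 ± 0.16) and Actn4 (0.19 ± 0.11).

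**Figure D3:**
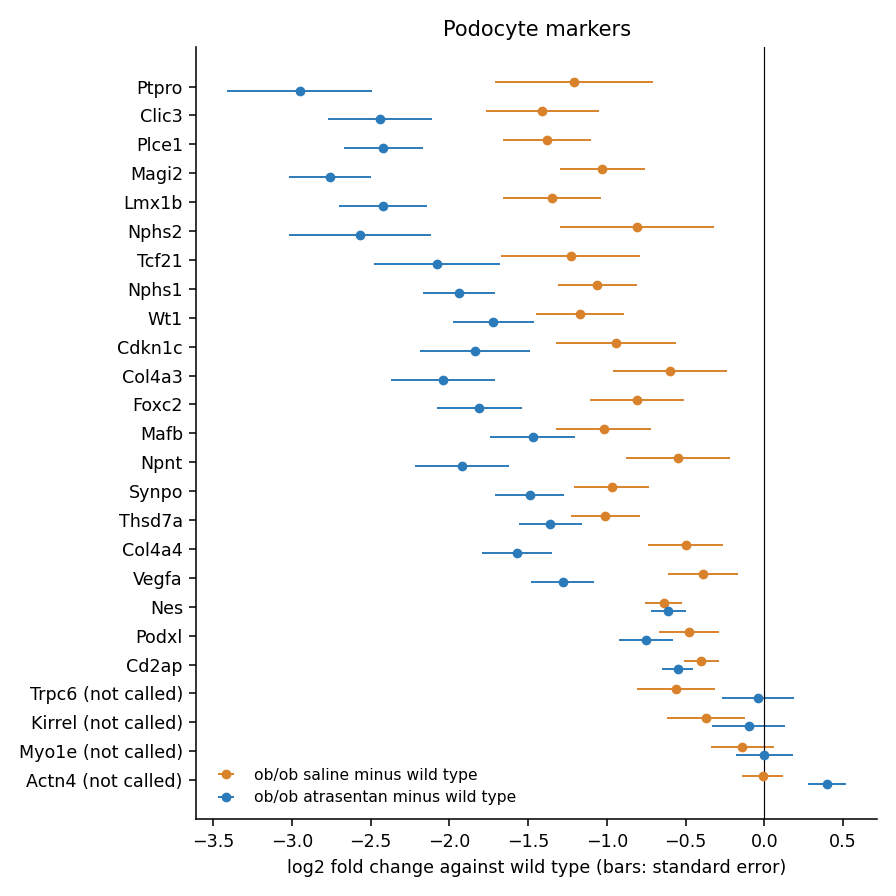
Log2 fold change of 25 podocyte genes against wild type in the saline (orange) and atrasentan (blue) ob/ob groups, with bars of 1 standard error. All 21 called genes lie left of 0 in both groups, and for 20 of them the atrasentan value lies further left, Nes being the exception.

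Markers of the other glomerular cells were mostly not called. The shares to set beside this and each later list count are 6.15% higher and 6.34% lower, over all genes tested. Of 20 glomerular endothelium genes 4 rose and 1 fell, and the list median was 0.22 (0.04 with saline and 0.40 with atrasentan). Plvap, the diaphragm protein of endothelial fenestrae, rose by 0.69 ± 0.11 in the mean of the groups and the TGF-beta co-receptor endoglin, Eng, by 0.60 ± 0.14, with saline values of 0.31 ± 0.13 and 0.33 ± 0.16. Esam, an adhesion molecule of endothelial junctions (0.54 ± 0.17), lost its call without saline library 4, atrasentan library 3 or 7, or wild type library 1, 3, 4 or 5 (adjusted p between 0.0511 and 0.111, edgeR), and the list gave 2 rises without atrasentan library 7, saline library 2 or 4, or wild type library 1, 3 or 5. The summed endothelial level was 21687 to 25240 CPM in wild type, 19546 to 38010 with saline, where library 2 was the highest, and 30200 to 44162 with atrasentan.

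Claudin 5, Cldn5, a tight junction protein of endothelium and podocytes, was the endothelial list's exception. It read 211, 218, 241, 150 and 160 CPM in wild type, 77.6, 65.9, 67.8, 116 and 110 CPM with saline and 55.8 to 79.7 CPM (median 68.0) with atrasentan. All 12 ob/ob libraries were below all wild type libraries, and Cldn5 was supported in each group (-1.16 ± 0.18 and -1.51 ± 0.16, adjusted p = 0.00499, edgeR).

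Few mesangial and smooth muscle genes passed, and those that did were higher. Over all genes tested 6.15% rose and 6.34% fell in common, 12.5% in either direction. Of 20, 3 rose and none fell: the protease inhibitor Serpine2 (0.40 ± 0.16 with saline and 1.34 ± 0.15 with atrasentan), the adhesion molecule Mcam (0.29 ± 0.17 and 0.97 ± 0.16) and smooth muscle actin, Acta2 (0.65 ± 0.33 and 1.30 ± 0.31). Acta2 lost its call without saline library 2 or 4 or without wild type library 1, 4 or 5 (adjusted p between 0.0514 and 0.0918, edgeR). Of 10 genes of parietal epithelium, the lining of Bowman's capsule, Cd24a (-0.77 ± 0.14 and -0.66 ± 0.13) and the adhesion molecule Ncam1 (-1.58 ± 0.37 and -2.48 ± 0.34) fell and the kinase anchor Akap12 rose (0.87 ± 0.23 in the mean). Akap12 lost its call without wild type library 3 (adjusted p = 0.0566).

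Of the tubule genes tested, 1 changed in common. Of 22 proximal tubule genes 1 fell, Kap, the androgen-regulated kidney protein, at 14.1, 187, 28.4, 29.2 and 82.1 CPM in wild type, 10.6, 1.56, 23.3, 2.31 and 4.83 CPM with saline and at most 7.14 CPM with atrasentan, so that wild type and saline levels overlapped. The list median was 1.92 with saline and -1.24 with atrasentan. Summed proximal tubule markers spanned 3592 to 6112 CPM in wild type, 5285 to 23788 with saline and 2018 to 4896 with atrasentan, with saline libraries 1 and 3 the highest. None of 12 loop of Henle, 12 distal tubule and 12 collecting duct genes tested passed for the mean of the groups. The medians with saline and atrasentan were 0.64 and -0.86 for the loop of Henle, 1.55 and 0.42 for the distal tubule, and 1.91 and 0.58 for the collecting duct. Their most abundant members stood at 0.18 ± 0.59 (Umod, uromodulin), 0.40 ± 0.14 (the kinase Sgk1, adjusted p = 0.0745 and 0.0313 with DESeq2) and 1.72 ± 0.74 (the water channel Aqp2).

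**Figure D4:**
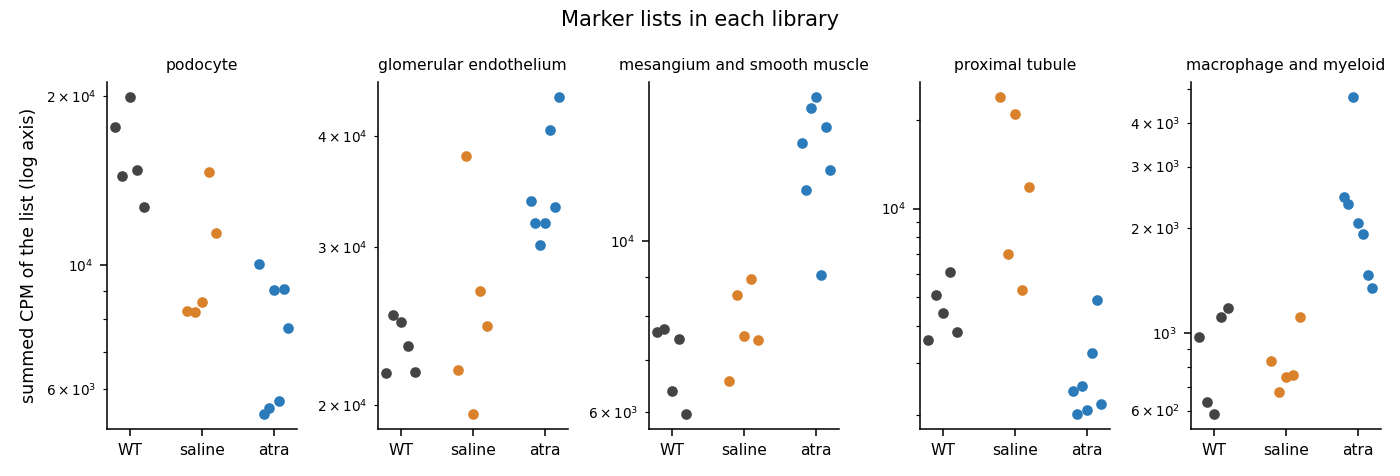
Summed CPM of 5 marker lists on log axes, 1 point per library, for wild type (WT), saline ob/ob and atrasentan ob/ob (atra) mice. Podocyte markers are lower in both ob/ob groups, while proximal tubule markers are spread upward with saline and lie lower with atrasentan.

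Basement membrane genes went both ways. Of 20, 5 rose and 6 fell. All of Col4a3, Col4a4, Col4a5 and Col4a6, chains of the mature type IV collagen networks, fell (-1.32, -1.03, -1.22 and -1.0 in the mean), as did the podocyte-made integrin ligand nephronectin, Npnt (-0.55 ± 0.33 with saline and -1.92 ± 0.30 with atrasentan). Col4a3, Col4a4 and Npnt are also in the podocyte list. Among those that rose were Col4a2, a chain of the widespread type IV collagen (0.92 ± 0.22), Tinagl1 (0.31 ± 0.17 and 1.11 ± 0.16) and Col8a1, a short-chain collagen, which had 47.6 ± 12.2 CPM in wild type (SD, n = 5), 83.9 ± 11.3 with saline (n = 5) and 290 ± 66.4 with atrasentan (n = 7). Without wild type library 5 the list had 3 rises and 5 falls.

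Among interstitial matrix genes that passed, most rose, but fibrillar collagens went both ways. Of 31, 11 rose and 3 fell, with a median of 0.59 (0.26 with saline and 0.69 with atrasentan). Decorin, Dcn, a small proteoglycan that binds collagen and TGF-beta, read 14.7, 11.5, 6.64, 6.81 and 8.87 CPM in wild type, 17.1, 20, 24.3, 26.5 and 21.6 CPM with saline, and 25.3 to 60.9 CPM (median 37.1) with atrasentan, with no overlap. Col1a2, a chain of the main fibrillar collagen, read 103, 101, 101, 97.2 and 73.9 CPM in wild type, 42.0, 30.6, 37.4, 66.7 and 37.3 CPM with saline and 30.4 to 59.2 CPM (median 50.5) with atrasentan. Both were supported in each group (adjusted p = 0.0281 for Dcn and 0.0140 for Col1a2, edgeR), Dcn at 1.17 ± 0.24 and 2.0 ± 0.24, Col1a2 at -1.15 ± 0.20 and -0.97 ± 0.18. The partner collagen Col3a1 rose by 1.19 ± 0.29 in the mean, and Bgn, the proteoglycan biglycan, by 0.74 ± 0.14, of which saline had 0.26 ± 0.16. Fibroblast markers as a list gave 2 rises and 2 falls of 9 tested, all 4 among the genes named here, and their summed level was 1828 to 2303 CPM in wild type, 1532 to 2130 with saline and 1815 to 2405 with atrasentan.

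Genes of the TGF-beta and BMP pathways, secreted signals of scarring and of vessel and kidney upkeep, rose where they passed. Of 25, 8 rose and none fell (median 0.37, 0.30 with saline and 0.46 with atrasentan), where 6.15% of all genes tested rose. The inhibitory SMAD gene Smad6 read 550, 582, 774, 655 and 887 CPM in wild type, 1187, 2043, 991, 1338 and 1047 CPM with saline and 1170 to 2272 CPM (median 1394) with atrasentan, with no overlap. Its relative Smad7 rose by 0.64 ± 0.15 and 0.92 ± 0.14, and the ligands Bmp2 and Bmp6 by 0.90 ± 0.22 and 1.86 ± 0.22 and by 0.30 ± 0.12 and 0.81 ± 0.12. Smad6, Smad7 and Bmp2 lay just beyond the threshold of support in each group (adjusted p = 0.0523, 0.0548 and 0.0657, edgeR). With the percentage of reads outside genes in the model 3 rose and 1 fell.

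Vascular growth factors and adhesion molecules moved on both sides. The podocyte factor Vegfa fell (-0.39 ± 0.22 with saline and -1.28 ± 0.20 with atrasentan), and so did placental growth factor, Pgf, which fell more with saline (-1.38 ± 0.18) than with atrasentan (-0.67 ± 0.16). The TIE2 ligand Angpt2 rose by 0.52 ± 0.20 and 1.28 ± 0.19 and Angptl2 fell by 1.01 ± 0.23 in the mean. In that list of 15, 4 rose and 3 fell, and 2 rose without wild type library 3 or 5. E-selectin, Sele, an adhesion molecule of activated endothelium, read 15.3, 4.31, 12.7, 24.5 and 13.5 CPM in wild type, 31.1, 42.0, 52.7, 37.3 and 26.6 CPM with saline and 26.4 to 62.0 CPM (median 30.9) with atrasentan. Its rise was 1.43 ± 0.33 and 1.40 ± 0.32, with an adjusted p of 0.0542 for both groups (edgeR). The leukocyte ligands Icam1 and Cxcl16 rose by 0.89 ± 0.20 and 0.81 ± 0.16 in the mean, Cxcl12 fell by 0.75 ± 0.17, and 4 of 16 such genes rose in all.

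Of 7 genes tested in the endothelin list, the drug target's own pathway, 2 rose and 1 fell. Over all genes tested the shares were 6.15% and 6.34%, and a list this short moves by large steps. Endothelin 1, Edn1, stood at 46.7 ± 5.36 CPM in wild type (SD, n = 5), 59.3 ± 14.6 with saline (n = 5) and 76.1 ± 13.5 with atrasentan (n = 7), a rise of 0.52 ± 0.14 in the mean that was lost without wild type library 3, 4 or 5 and with upper-quartile scaling (adjusted p between 0.0508 and 0.0592, edgeR). The converting enzyme Ece1 also rose by 0.52 ± 0.14, and lost its call without wild type library 2, 3 or 5 (adjusted p at most 0.0577). Mme, the peptidase neprilysin that podocytes and proximal tubule carry and that degrades endothelin, fell by 0.76 ± 0.30 and 2.26 ± 0.28. The receptor gene Ednra was not called (0.39 ± 0.20, adjusted p = 0.216), but passed without atrasentan library 5 (adjusted p = 0.0393).

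Of 12 renin-angiotensin genes, angiotensinogen, Agt, rose with saline (3.21 ± 0.65) more than with atrasentan (0.95 ± 0.58), and the aminopeptidase Enpep fell (-2.0 ± 0.39 in the mean), as did Mme. Agt was highest in saline libraries 1 and 3, at 66.2 and 47.1 CPM against 1.71 to 4.64 CPM in wild type, and its common call was lost without them (adjusted p = 0.0666) as it was without wild type library 1, 3 or 5 (0.0504 to 0.0717, edgeR).

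Complement genes, which tag and lyse targets in innate immunity, had 9 rises and 3 falls among 20. Of all genes tested 6.15% rose and 6.34% fell. The subunits of C1q, made by macrophages, rose most with atrasentan. C1qb read 2.50, 2.62, 2.56, 1.40 and 1.12 CPM in wild type, 11, 3.61, 7.81, 3.87 and 6.29 CPM with saline and 17.4 to 233 CPM (median 35.5) with atrasentan, and atrasentan library 3 held the 233. Every ob/ob library was above every wild type library, although the saline rise alone was not called (1.67 ± 0.62, adjusted p = 0.121, against 4.92 ± 0.67 with atrasentan, edgeR). C1qa and C1qc had the same pattern (3.31 ± 0.63 and 3.10 ± 0.57 in the mean). Cd55, which protects cells from complement, fell by 0.96 ± 0.27 and 1.43 ± 0.25. Of the 20 macrophage and myeloid markers 6 rose, the 3 C1q genes among them, and 3 did without wild type library 3; their summed level was 588 to 1180 CPM in wild type, 679 to 1109 with saline and 1348 to 4733 with atrasentan. The part of more macrophage RNA in the C1q values was not tested.

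By their median, the listed antigen presentation genes stood near wild type with saline (-0.04) and above it with atrasentan (1.57). Of 17, 4 were common and higher, but 5 more passed with opposite signs. H2-K1, a class I molecule, had 811 ± 380 CPM in wild type (SD, n = 5), 799 ± 276 with saline (n = 5) and 2622 ± 566 with atrasentan (n = 7), so that its log2 fold change was -0.02 ± 0.27 with saline and 1.69 ± 0.27 with atrasentan (adjusted p = 0.000316 between the ob/ob groups, edgeR). B2m, its light chain (-0.16 ± 0.24 and 1.57 ± 0.24), and the class II gene H2-Aa (-0.03 ± 0.35 and 2.32 ± 0.35) did likewise. The 4 common ones, H2-Ab1, H2-Eb1, H2-DMa and Cd74, had saline values of at most 0.13 ± 0.33, and the number of common genes in the list ran from 0 without saline library 5 to 12 without wild type library 1, which had the highest H2-K1 level (1489 CPM). Left out singly, wild type libraries 2 to 5 and saline libraries 1, 2 and 5 each ended the call of 1 or more of H2-K1, B2m, H2-Aa, H2-Eb1, H2-DMa and Cd74, while H2-Ab1 kept its call for the mean in each such fit. H2-Q6, a class I gene outside the list, went the other way. It fell from 2270 CPM in wild type to 893 with saline and 1142 with atrasentan. It was supported in each group (-1.35 ± 0.20 and -0.99 ± 0.18, adjusted p = 0.0139, edgeR), with no overlap. Reads of H2 genes with near-identical copies are uncertain. On the other side, 3 transcripts were near wild type level with saline and almost absent with atrasentan, the microRNA gene Mir212 (0.03 ± 0.54 and -5.39 ± 0.67), Gm43605 and the sodium channel gene Scn4a, all under 1 CPM on average. The call of Gm43605 was lost without wild type library 2 or 3, and that of Scn4a without saline library 2 or 4 or wild type library 4 or 5.

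Lymphocyte markers gave 2 falls of 18, Cd79b of the B cell receptor (-0.92 ± 0.25) and the homing receptor Ccr7 (-1.20 ± 0.30), the first lost without wild type library 1, 4 or 5 (adjusted p between 0.0713 and 0.0773) and the second without wild type library 4 (0.0699, edgeR). Their summed level was 172 to 467 CPM in wild type, 105 to 241 with saline and 248 to 729 with atrasentan. Beside the 2 falls stand the 6.34% of all genes tested that fell. None of 28 interferon response genes passed by edgeR and none of 5 red cell genes. For the most abundant member of each, Irf1 stood at 0.53 ± 0.21 (adjusted p = 0.105) and Hbb-bs at 0.34 ± 0.40.

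**Figure D5:**
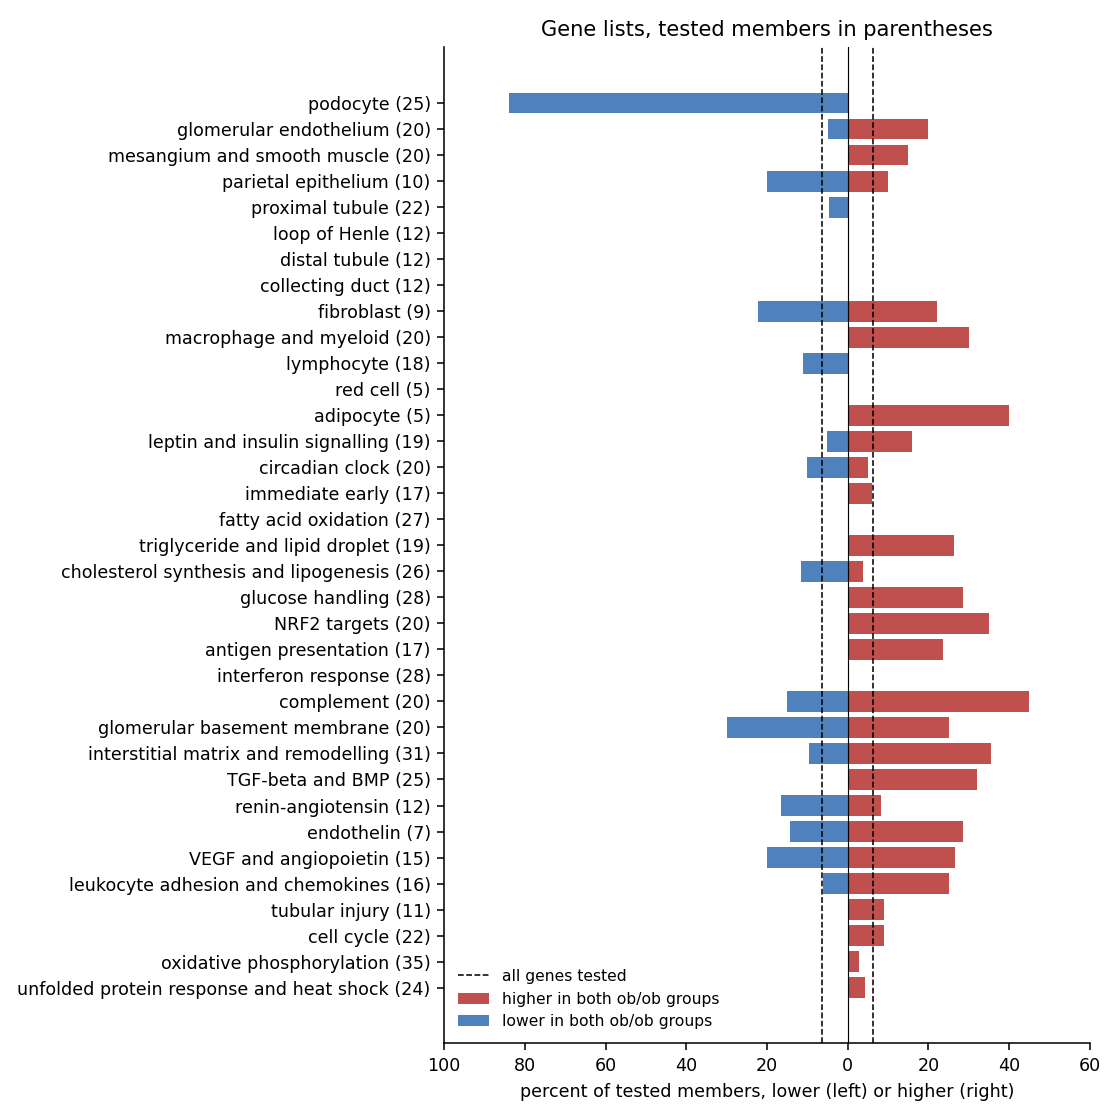
Percent of the tested members of 35 gene lists that were lower (blue, left) or higher (red, right) in common in ob/ob mice, with dashed lines at the shares over all genes tested (6.34% lower and 6.15% higher). The podocyte bar, 21 of 25 lower, is the longest, and bars of lists with few members move by large steps.

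Of 20 circadian clock genes, Cry1 rose and Arntl and Npas2 fell in common, which is near the share of 12.5% over all genes tested. Arntl encodes BMAL1, which drives the daily clock with CLOCK or its relative NPAS2 by binding E-boxes. PER and CRY proteins feed back on it, and Arntl itself is switched through receptor sites built on the half-site AGGTCA. The RefSeq promoter windows of the called genes Arntl and Cry1 (250 bases before to 50 after the start, GRCm38.p6) are shown because these 2 genes carry the letters of those sites, with the matches to AGGTCA in Arntl (chr7:113207261-113207560, plus strand) and to the E-box CACGTG in Cry1 (chr10:85185005-85185304, minus strand) in capitals.
Arntl: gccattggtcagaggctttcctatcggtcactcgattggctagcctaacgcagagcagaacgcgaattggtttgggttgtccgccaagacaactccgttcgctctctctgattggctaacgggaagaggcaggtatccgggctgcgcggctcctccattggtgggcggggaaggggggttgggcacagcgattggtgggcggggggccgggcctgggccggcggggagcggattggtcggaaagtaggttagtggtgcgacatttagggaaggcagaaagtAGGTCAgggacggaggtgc
Cry1: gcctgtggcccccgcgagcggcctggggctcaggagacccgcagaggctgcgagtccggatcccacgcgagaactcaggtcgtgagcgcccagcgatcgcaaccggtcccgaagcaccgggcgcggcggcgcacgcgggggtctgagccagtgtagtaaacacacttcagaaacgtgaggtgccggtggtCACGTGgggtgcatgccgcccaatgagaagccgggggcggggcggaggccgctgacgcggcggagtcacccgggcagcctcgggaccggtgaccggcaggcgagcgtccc
Searched on both strands, CACGTG was in 7.15% and AGGTCA in 16.3% of 32851 promoter windows of this length. Counted by gene, where any matching window was enough, each was found for 5 of 17 clock genes that had a window. Shares of windows and counts of genes are unlike units and were not compared. A second window of Arntl, from another start, and that of Npas2 held neither. A match is a description of the letters, not a bound site.

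Arntl read 4.34, 30, 7.11, 52.5 and 63.4 CPM in wild type, 3.99, 6.18, 4.23, 5.15 and 4.83 CPM with saline, and 1.69 to 6.25 CPM (median 2.51) with atrasentan. The ob/ob libraries were all low and close together. Wild type libraries 1 and 3 were at or near their level, and wild type libraries 2, 4 and 5 were high. Arntl passed in each group (-2.69 ± 0.58 and -3.31 ± 0.53, adjusted p = 0.0360, edgeR). Npas2 divided the wild type libraries in the same way (0.421 and 0.948 CPM in libraries 1 and 3 against 6.57, 17.9 and 12.5 CPM). Cry1 mirrored it, with 28.9 and 21.6 CPM in libraries 1 and 3 and 14.4, 11.1 and 12.4 CPM in the other 3. Cry1 rose by 1.11 ± 0.34 with saline, to 25.5 to 54.7 CPM, and by 1.87 ± 0.33 with atrasentan, to 30.7 to 97.2 CPM.

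The remaining 17 of 20 clock genes were not called, but the list median was 0.59, with 0.71 for saline and 0.47 for atrasentan. Per2 stood at 43.6 ± 36.8 CPM in wild type (SD, n = 5), 110 ± 26.8 with saline (n = 5) and 112 ± 41.4 with atrasentan (n = 7). Without wild type library 1 the list had 7 rises and 3 falls, and without wild type library 3 it had 4 rises and 3 falls, in place of 1 and 2. The sources used here do not give the hour of killing, and its part in these values was not tested. Of 17 immediate early genes, which respond to stress and handling within minutes, 1 rose, Klf6 (0.66 ± 0.15).

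Of the metabolic lists, those of glucose handling and lipid storage held common rises and that of fatty acid oxidation held none. None of 27 fatty acid oxidation genes passed by edgeR (median 0.41, 0.73 with saline and -0.05 with atrasentan), the abundant thiolase Acaa2 standing at 0.50 ± 0.19 (adjusted p = 0.0900, and 0.0476 with DESeq2). Of 28 glucose handling genes 8 rose and none fell, where 6.15% of all genes tested rose. Lactate dehydrogenase, Ldha, read 315, 421, 319, 325 and 352 CPM in wild type, 520, 448, 491, 409 and 446 CPM with saline and 408 to 568 CPM (median 454) with atrasentan, a small rise (0.42 ± 0.11 and 0.46 ± 0.10) with overlap at wild type library 2. The glycolytic genes Pfkl, Aldoa and Pfkfb3 rose by 0.53 ± 0.12, 0.49 ± 0.11 and 0.80 ± 0.18 in the mean. The list gave 5 rises without wild type library 3 and 4 without wild type library 5. It gave 3 rises and 1 fall with the glomerular score in the model, and no call with the percentage of reads outside genes in it.

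In the triglyceride and lipid droplet list 5 of 19 genes rose, but there was 1 rise without wild type library 4 or 5, and there were 2 without wild type library 3 or without saline library 1 or 5. Mgll, the monoacylglycerol lipase (0.28 ± 0.12 and 0.88 ± 0.11), was called in every fit with 1 library left out. Plin2, the coat protein of lipid droplets (0.42 ± 0.13), lost its call in 6 of the fits with 1 library left out (adjusted p up to 0.118), Mogat2 in 9 and Pnpla2, the triglyceride lipase, without wild type library 4 or 5 (0.0527 and 0.0710, edgeR). Fabp4, a fatty acid carrier of endothelium, macrophages and fat cells, rose with better support. It read 121, 131, 80.4, 67.1 and 84.7 CPM in wild type, 193, 383, 150, 161 and 167 CPM with saline and 252 to 417 CPM (median 350) with atrasentan, and was supported in each group (1.12 ± 0.25 and 1.81 ± 0.24, adjusted p = 0.0390). Saline library 2 was far above the other 4. Of 12 adipocyte markers 7, Adipoq, Plin1, Cidec, Cfd, Retn, Ucp1 and Cidea, had too few reads to test, and 2 of the other 5 rose, Fabp4 and Pnpla2. In the list of cholesterol synthesis and lipogenesis 3 of 26 fell, among them Dhcr7, the last enzyme of cholesterol synthesis (-0.47 ± 0.11), Scd2 (-0.61 ± 0.16, lost without wild type library 3, adjusted p = 0.0857) and Fdps (-0.66 ± 0.19, lost without saline library 5 or wild type library 3, 4 or 5, adjusted p between 0.0510 and 0.139), and Acly rose (0.29 ± 0.08, lost without wild type library 3 or 5, adjusted p = 0.0599 and 0.0611).

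Targets of the antioxidant regulator NRF2 had 7 rises and no fall among 20, where 6.15% of all genes tested rose. Gclm and Gclc, the subunits of the enzyme that limits glutathione synthesis, rose in both groups (0.59 ± 0.13 and 0.49 ± 0.12 for Gclm, 0.58 ± 0.14 and 0.47 ± 0.13 for Gclc). Gclm read 80.7, 77.8, 75.2, 81.7 and 72.1 CPM in wild type, 154, 91.9, 142, 89.2 and 105 CPM with saline and 95.0 to 116 CPM (median 112) with atrasentan. All ob/ob values lay above all wild type values, the highest being those of saline libraries 1 and 3, which also held the most proximal tubule markers. Heme oxygenase, Hmox1 (0.33 ± 0.12 and 0.80 ± 0.12), and the glutathione transferase Gstm1 (0.36 ± 0.10 and 1.02 ± 0.10) rose more with atrasentan. The list had 4 rises without saline library 1 or 3 or wild type library 3, 4 or 5, and 3 rises and 2 falls with the glomerular score in the model.

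Leptin itself could not serve as a check of the labels, because 1 read of Lep was found in the 17 libraries together, in saline library 1. A common rise was found for the transducer of the leptin receptor Stat3 (0.33 ± 0.14 and 0.92 ± 0.13), for Ptpn1, a phosphatase that damps leptin and insulin signals (0.10 ± 0.10 and 0.58 ± 0.09), and for the growth factor binding protein Igfbp3 (0.58 ± 0.18 and 1.01 ± 0.17), out of 19 genes of leptin and insulin signalling. Socs2, a feedback inhibitor, fell (-0.52 ± 0.14), and lost its call without wild type library 4 or 5 (adjusted p = 0.0725 and 0.109, edgeR). Over all genes tested 6.15% rose and 6.34% fell in common. The receptor gene Lepr was not called (0.45 ± 0.22, adjusted p = 0.184). Nor was clusterin, Clu, which the title of the series names, at 176 ± 29.4 CPM in wild type (SD, n = 5), 274 ± 109 with saline (n = 5) and 186 ± 51.9 with atrasentan (n = 7).

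In each list of injury and growth 1 or 2 genes changed in common, where 6.15% of all genes tested rose and 6.34% fell. Of 22 cell cycle genes, cyclin D1, Ccnd1, rose (0.70 ± 0.16 and 1.11 ± 0.16, no overlap), as did the cell cycle inhibitor Cdkn1a (0.80 ± 0.21, lost without wild type library 3, adjusted p = 0.0622). Lcn2, the injury marker NGAL, was the 1 of 11 tubular injury genes that rose (2.31 ± 0.67), with 33.0 CPM in atrasentan library 3 and 9.47 CPM in saline library 2 as its highest values, and it lost its call without any 1 of the 5 wild type libraries (adjusted p between 0.0517 and 0.0738, edgeR). Of 35 oxidative phosphorylation genes Uqcrc1 rose (0.59 ± 0.15), and of 24 genes of the unfolded protein and heat shock responses Herpud1 rose (0.65 ± 0.20), a call lost in 9 of the fits with 1 library left out (adjusted p up to 0.121).

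Around the Lep gene (chr6:29060220-29073877, plus strand), where ob/ob and wild type mice may differ in DNA, more of the common genes were lower than higher. Within 20 Mb on either side 220 genes were tested, of which 5 were higher (2.27%) and 22 lower (10%). On chromosome 6 elsewhere 51 of 817 were higher (6.24%) and 47 lower (5.75%). The shares in either direction were 12.3% and 12.0%, beside 12.5% of all genes, and the difference in direction was not tested. The window held 2 genes supported in each group, Thsd7a at -16.75 Mb and Gimap3 at 19.70 Mb from Lep. It also held Fam180a (chr6:35312668-35326141), named above for the size of its fall but not supported in each group. For the podocyte gene Thsd7a a change in podocytes and a difference in the sequence near Lep cannot be told apart. The part of that sequence in the falls of Gimap3 and Fam180a was not tested.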

How the data were processed

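Poly(A)-selected RNA of 17 samples, all labelled batch 1, was sequenced as single-end reads. The authors deposited read counts per gene, and the submitters' processing notes name STAR, HTSeq, DESeq2, edgeR, limma and build GRCm38 without versions or roles. Neither the strand setting used for counting nor the release of the annotation is given in those notes. They also deposited a table of normalized log2 values for 17338 genes, made by the authors in a way not described further, which served only as an alternative. Lines that name no gene stayed out of library sizes. Among them were reads outside genes (3.17% to 8.58%), reads not uniquely aligned (23.4% to 31.8%) and ambiguous reads (2.93% to 3.37%).

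Genes passing filterByExpr were fitted in 1 edgeR 4.0.16 quasi-likelihood model of the 3 groups (R 4.3.3, TMM factors 0.892 to 1.15). The contrast was the equally weighted mean of the saline and atrasentan groups less wild type, with two-sided p-values adjusted by Benjamini-Hochberg over all 17766 genes, called under 0.05 with no minimum fold. For support in each group the larger of the 2 p-values was adjusted. Fold changes are log2 with standard errors, and CPM use TMM-scaled library sizes. Replicate pairs differed beyond sampling noise (chi-square over its degrees of freedom at least 24.3 in each of 41 pairs). Labels number no replicates, so libraries are numbered in accession order, and where nothing says that samples came from separate animals p-values measure only the spread between these samples.

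Named were, per direction, the 12 common genes with the largest smaller fold change and the 6 others with the best support, all without overlap and at 1 CPM or more, up to 4 common genes per list (or the most abundant member), Lep, Lepr, Clu, Edn1, Ednra, and 3 genes per direction with opposite signs. Other genes given with values were chosen after these were seen. Of 649 distinct list symbols 648 were found. The members, rules and lists were chosen with earlier results of these data known. Alternatives were limma 3.58.1, DESeq2 1.42.0, other scalings and filters, covariates and left-out libraries. Promoters are from RefSeq, matched by symbol.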

Additional observations from a re-analysis of the deposited data

Results flagged for a closer look

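In 38 of 408 comparisons within 1 group (9.31%), 1 library lay farther from its nearest neighbour than Dixon's 95% limit allows. All 38 were of a named gene, though not all of the 408 were. Chance flags about 1 in 20 groups. No explanation was tested, and values are in CPM.

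Atrasentan library 3 accounted for the largest number, many of them genes of immune cells. It was the highest of its group for C1qa at 170 (the others 9.96 to 44.7), C1qb at 233 (17.4 to 54.5), C1qc at 218 (17.5 to 49.0), the class II gene H2-Eb1 at 721 (156 to 368), Cxcl16 at 198 (94.9 to 117), Hmox1 at 73.9 (47.9 to 56.6) and Lcn2 at 33.0 (1.45 to 7.35). The same held for Spon2 at 78.0 (9.42 to 25.6), Acta2 at 498 (165 to 243), Igfbp3 at 173 (74.8 to 108), Ccdc68 at 22.2 (13.1 to 16.2) and Npas2 at 0.963 (0.0256 to 0.313).

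Saline library 2 was high for genes of endothelium and its activation: Plvap at 392 (the others 301 to 325), Esam at 1039 (427 to 597), Icam1 at 146 (70.4 to 92.1), Ece1 at 761 (516 to 559), Fabp4 at 383 (150 to 193) and Tinagl1 at 1087 (615 to 734). It was also high for Il1r2 at 5.14 (0.312 to 0.525), Lcn2 at 9.47 (2.50 to 4.26) and Sgk1 at 4175 (2349 to 2787).

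Among wild type libraries, library 3 was high for Qrfpr at 6.01 (the others 0.365 to 1.90), Ncam1 at 24.9 (11.2 to 13.8) and Mme at 112 (60.4 to 73.2). Wild type library 1 was high for H2-K1 at 1489 (611 to 686) and wild type library 2 for Gstm1 at 322 (226 to 246). Wild type library 5 was low for Col1a2 at 73.9 (97.2 to 103) and Pfkl at 83.8 (116 to 126).

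Atrasentan library 6 was high for Gabra3 at 22.6 (the others 3.58 to 7.66), Timp4 at 20.3 (3.90 to 8.20), Mogat2 at 8.03 (0.436 to 2.64) and Agt at 16.5 (1.69 to 7.65). Single flags fell on atrasentan library 5 for Sgk1 at 4092 (2390 to 3074), atrasentan library 7 for Eya1 at 0.320 (0 to 0.0750) and atrasentan library 1 for Gm43605 at 0.0769 (0 to 0.0250). In the saline group library 4 was high for Vegfa at 847 (461 to 562), library 3 for Gabra3 at 4.37 (1.88 to 2.49) and library 1 for Lep at 0.0263, its 1 read, where the others had none.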

How the results depend on the processing

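None of the named genes called changed direction under the alternatives run. The 2268 genes called for the mean of the ob/ob groups became 1273 with the 12 ob/ob libraries as 1 group, of which 654 were higher and 619 lower in common, and 521 with the percentage of reads outside genes in the model, of which 219 were higher and 298 lower. Upper-quartile scaling gave 724 higher genes, shifted the median of all genes by -0.08 on the log2 scale and so moved the split. Leaving out 1 library at a time gave 1409 to 2822 called, 640 to 1289 common and higher, and 737 to 1430 common and lower, with the lowest values without wild type library 3 or 5 and the highest without atrasentan library 5. The cause of these shifts was not tested.

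The 140 genes supported in each group moved more. They became 417 with DESeq2, 26 with the proximal tubule mean in the model, 7 with the percentage of reads outside genes in it and 3 with the glomerular score in it. Without saline libraries 1 and 3 there were 27, and without saline library 2 and atrasentan library 3, an alternative chosen after seeing the data, there were 73. With 1 library left out there were 60 to 202. Of the 140, 50 were supported in every fit with 1 library left out, and 19 of these also without saline libraries 1 and 3. This test was not recomputed with the ob/ob libraries as 1 group.

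Of 116 named common genes, 21 lost the call in at least 1 fit with 1 library left out, 22 with the glomerular score in the model, 18 with the ob/ob libraries as 1 group, 4 by limma-voom and none by DESeq2. Of the 6 named genes with opposite signs, 5 lost it with 1 library left out. The median of the proximal tubule list, 0.28, turned to -0.81 with the glomerular score, -0.62 with the percentage of reads outside genes and -0.11 without saline libraries 1 and 3. No paired analysis was possible because the labels number no replicates. Depth limits the genes under 1 CPM, such as Mir212, Gm43605 and Scn4a, which rest on few reads.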

Other observations

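Several genes supported in each ob/ob group fall outside the lists and naming rules above and were chosen after their values were seen. Among secreted factors of vessels and inflammation, Lrg1, a TGF-beta modulating glycoprotein, rose by 1.83 ± 0.31 on the log2 scale in the mean of the ob/ob groups, from 27.0 CPM in wild type to 81.1 with saline and 113 with atrasentan. Vegfd, a lymphatic growth factor, rose by 2.02 ± 0.23 (18.3 to 47.5 and 117 CPM) and the peptide hormone gene Apln by 1.03 ± 0.17 (5.31 to 9.63 and 12.2 CPM). Gpihbp1, which anchors lipoprotein lipase to capillary endothelium, rose by 1.32 ± 0.16 (120 to 226 and 396 CPM), and Hdc, the enzyme that makes histamine, by 1.78 ± 0.33 (29.5 to 100 and 102 CPM).

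Among those lower in both groups were Sfrp2, a secreted Wnt inhibitor (-1.29 ± 0.15), which had 1307 CPM in wild type, 382 with saline and 751 with atrasentan, and Steap4, a metalloreductase (-1.33 ± 0.17), at 350, 143 and 135 CPM. The cell cycle transcription factor gene E2f1 fell by 1.29 ± 0.17 on the log2 scale (44.5 to 19.1 and 17.3 CPM) and the prostaglandin receptor gene Ptger2 by 1.84 ± 0.24 (7.12 to 1.89 and 2.09 CPM). Gimap3, a GTPase of lymphocytes that lies within 20 Mb of Lep, fell by 1.68 ± 0.22 (252 to 73.9 and 83.8 CPM).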
